A study of Rattus norvegicus with 8 samples.

Results

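The genes described here encode collagens, elastic fibre proteins, matrix proteoglycans and matricellular glycoproteins, which together build and tune the extracellular matrix. The list named 35 genes. A gene was taken as measured where a probe set of the array carried its symbol and no other, and the probe set with the highest mean over all arrays stood for it. This gave 31 of the 35 members, among 18166 genes measured in all. Hspg2, Col6a1, Fbln5 and Tnc were not analysed here. Of the 31 members, 11 were grouped here as basement membrane genes and 20 as interstitial genes. The grouping was a choice, with matricellular genes such as Sparc, and the fibulin gene Fbln1, placed on the interstitial side.

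Total RNA came from alveolar type II (ATII) cells freshly isolated from 4 male Sprague Dawley rats and was measured on 8 Affymetrix arrays. Each rat gave 1 AdGFP well, whose cells carried an adenovirus for green fluorescent protein, and 1 AdHIF1a well, whose adenovirus encoded a HIF1a mutant that is always active. Cells of both groups met the virus in suspension, at an MOI (infectious virus particles per cell) of 20 over 3 h in medium with 2% FBS. They were then plated in medium with 5% rat serum on a mixture of 80% rat tail collagen with 20% Matrigel, and RNA was taken 24 h later, so that all cells lay on a matrix that was supplied to them. Neither an untransduced well nor the age of the rats was given in the sources used here. Rat and extraction day coincide, and the differences and p-values below come from fits within rats, except where another block is named. Overlap of groups and ranges of summed signals set the wells of the 2 viruses side by side without the pairing.

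Basement membranes are thin sheets under epithelia, in which a network of type IV collagen is joined to laminin by nidogens and the proteoglycans perlecan and agrin. The interstitial matrix outside them is built from fibrils of types I, III and V collagen, beaded filaments of type VI collagen and elastic fibres, and is made mainly by fibroblasts. In the alveolus the epithelium and the capillary share a fused basement membrane, to which epithelial cells contribute. Hypoxia-inducible factor, the transcription factor of which HIF1a is the regulated subunit, is known to raise enzymes that modify collagen.

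Of the 31 measured members, 6 were lower and 1 was higher in the AdHIF1a wells, and 24 did not pass the threshold. The threshold was an adjusted p under 0.05 from the paired limma fit, with Benjamini-Hochberg adjustment over all 18166 genes, of which 13.4% passed it. Lower calls made up 7.77% and higher calls 5.68% of all genes. The largest falls were those of Sparc and Bgn, at 4.52-fold and 4.21-fold, followed by the type IV collagen genes Col4a1, Col4a2 and Col4a5 and the basement membrane collagen gene Col18a1. Nid2, which encodes a nidogen, rose 1.86-fold. Signals of the fibrillar collagen genes Col1a1, Col1a2 and Col3a1 had group means between 4.98 and 5.86, against a median of 5.09 over all probe set means, and none of the 3 passed the threshold.

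**Figure D1:**
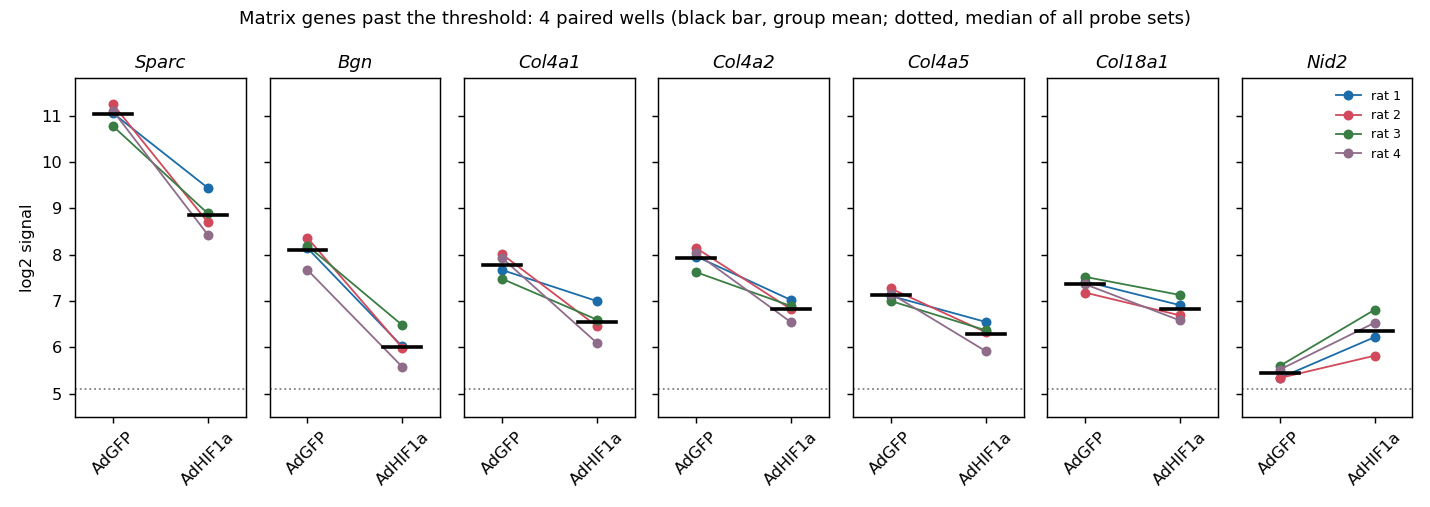
Log2 signal of the 7 members past the threshold in each well, with a line joining the 2 wells of a rat, black bars for the group means and a dotted line at the median of all probe set means (5.09). Each of the 6 genes from Sparc to Col18a1 was lower in the AdHIF1a well of every rat, and Nid2 was higher in every rat.

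Promoter sequence was looked up for the members in a table of windows reaching from 250 bases before to 50 bases after each gene's start (RefSeq, build GRCr8), which held 26 of the 35 members and 22 of the 31 measured. The core of the HIF binding motif was searched as ACGTG or GCGTG on both strands. At least 1 match was found for 9 of the 22 measured members, or 40.9%, and in 41.6% of all 33469 windows of the table. Of the 7 genes past the threshold 5 had a window, and 4 of these held a match. Bgn and Nid2 had none in the table. The stretches printed here are the 250 bases before the start of Sparc (chr10:40038817-40039066, minus strand), of Col4a5 (chrX:109907109-109907358, plus strand) and of Col18a1 (chr20:11473395-11473644, plus strand), and the 76 bases between the starts of Col4a1 and Col4a2 (chr16:84885521-84885596, plus strand), shown because these genes fell and because the last pair lies head to head. Capitals mark the motif on either strand.
Sparc: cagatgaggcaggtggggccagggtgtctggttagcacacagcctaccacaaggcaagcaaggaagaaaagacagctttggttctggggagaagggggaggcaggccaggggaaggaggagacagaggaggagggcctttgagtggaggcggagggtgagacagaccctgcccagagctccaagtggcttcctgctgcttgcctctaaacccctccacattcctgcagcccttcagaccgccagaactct
Col4a5: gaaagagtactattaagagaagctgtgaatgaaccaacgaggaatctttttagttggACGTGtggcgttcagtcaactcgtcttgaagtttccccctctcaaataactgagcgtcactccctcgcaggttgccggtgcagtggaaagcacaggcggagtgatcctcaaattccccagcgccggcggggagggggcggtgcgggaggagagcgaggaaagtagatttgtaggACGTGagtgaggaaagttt
Col18a1: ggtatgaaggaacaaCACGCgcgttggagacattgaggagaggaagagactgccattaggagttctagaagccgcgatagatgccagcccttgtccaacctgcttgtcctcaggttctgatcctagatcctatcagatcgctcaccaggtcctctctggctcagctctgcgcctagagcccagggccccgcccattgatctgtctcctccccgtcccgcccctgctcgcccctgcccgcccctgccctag
Col4a1/Col4a2: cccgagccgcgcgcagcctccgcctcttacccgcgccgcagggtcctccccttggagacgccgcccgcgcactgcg
The Sparc stretch held no match, that of Col4a5 held 2 and that of Col18a1 held 1. The 76 bases between Col4a1 and Col4a2 held none, and the 1 match in the window of either gene lay inside the other's transcribed side. A match is a description of the letters and was not tested as a binding site.

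Type IV collagen forms the network of the basement membrane, and its chains are encoded by gene pairs that share a start region. Col4a1, a chain of the form found in all basement membranes, had log2 signals of 7.67, 8.01, 7.48 and 7.93 in the AdGFP wells of rats 1 to 4 and of 7.0, 6.46, 6.60 and 6.10 in their AdHIF1a wells. Its partner Col4a2 had 7.96, 8.14, 7.62 and 8.03 against 7.02, 6.82, 6.89 and 6.54. In both genes every AdHIF1a well lay below every AdGFP well, and the fall was largest in rat 4. The difference was -1.23 ± 0.22 (log2 units, SE, n = 4 rats) for Col4a1, or 2.35-fold (95% interval 1.62 to 3.41, limma adjusted p = 0.0213). For Col4a2 it was -1.12 ± 0.15, or 2.17-fold (1.68 to 2.81, limma adjusted p = 0.0105). Col4a1 and Col4a2, with starts 76 bases apart on chromosome 16, had overlapping intervals of their differences, -1.77 to -0.70 and -1.49 to -0.75. This was not particular to the pair. The intervals of Col4a5 (-1.19 to -0.50) and Col18a1 (-0.79 to -0.30), on other chromosomes, overlapped both. The difference between Col4a1 and Col4a2 was not tested, nor was a part of the start region.

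Col4a5, the X-linked chain that is found with Col4a3 and Col4a4 in lung and kidney basement membranes, had 7.11, 7.27, 7.0 and 7.16 against 6.55, 6.33, 6.37 and 5.92, again without overlap. It fell by 0.84 ± 0.14 on the log2 scale, or 1.79-fold (95% interval 1.41 to 2.28, limma adjusted p = 0.0181). Col4a3 had 5.88, 5.85, 5.63 and 5.92 against 5.53, 5.62, 5.50 and 5.62. Its groups did not overlap either, but the difference of -0.25 ± 0.09 did not pass the threshold (limma adjusted p = 0.123). Col4a4, which lies head to head with Col4a3, differed by -0.22 ± 0.15 (limma adjusted p = 0.430), with overlapping groups and a positive difference of 0.26 in rat 3. Signals of both genes lay closer to the median of all probe set means (5.09) than that of Col4a5.

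Col18a1 encodes the collagen of epithelial and vascular basement membranes from which endostatin is cleaved. Its signals were 7.42, 7.18, 7.52 and 7.36 in the AdGFP wells and 6.91, 6.69, 7.13 and 6.58 in the AdHIF1a wells, the highest of the latter lying just below the lowest of the former. The gene fell by 0.54 ± 0.10, or 1.46-fold (95% interval 1.23 to 1.73, limma adjusted p = 0.0238). Col15a1, its closest relative, and Col7a1, the collagen of the anchoring fibrils, had both group means below the median of all probe set means, at 4.90 and 4.90 for Col15a1 and 4.79 and 4.77 for Col7a1. Their differences of -0.003 ± 0.13 and -0.02 ± 0.09 did not pass the threshold.

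The nidogens bind type IV collagen to laminin, and Nid2 moved in the direction opposite to Col4a1, Col4a2 and Col4a5. Nid2 had log2 signals of 5.34, 5.34, 5.60 and 5.52 in the AdGFP wells and of 6.22, 5.82, 6.81 and 6.53 in the AdHIF1a wells, with no overlap. It rose by 0.90 ± 0.14, or 1.86-fold (95% interval 1.47 to 2.36, limma adjusted p = 0.0150), from a level not far above the median of all probe set means. Nid1 had 4.18, 4.32, 4.44 and 4.05 against 4.77, 4.54, 4.64 and 4.53, all of them below that median. Its groups did not overlap, and its difference of 0.37 ± 0.11 did not pass the threshold (limma adjusted p = 0.0784); it passed without the rat as a replicate block (adjusted p = 0.0478). Agrn, the gene of the heparan sulfate proteoglycan agrin, had a mean log2 signal of 10.85 ± 0.24 (SD) in the AdGFP wells and 10.67 ± 0.10 in the AdHIF1a wells, and differed by -0.18 ± 0.11 (95% interval -0.46 to 0.10, limma adjusted p = 0.367).

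Leaving out 1 rat ended calls among the 5 basement membrane genes. Their differences kept their direction, which was fixed in advance because each gene moved the same way in all 4 rats. Without rat 2 the calls of Col4a1 (adjusted p = 0.0990), Col4a2 (0.0622), Col4a5 (0.0931) and Col18a1 (0.107) were lost, and without rat 4 those of all 5 genes, at adjusted p from 0.0509 for Col4a2 to 0.105 for Col18a1. Without rat 3 Col4a1 (0.0595), Col4a5 (0.0549), Col18a1 (0.0649) and Nid2 (0.0569) were lost, and without rat 1 Col18a1 alone (0.0556). Across these fits the difference ran from -1.42 to -1.03 for Col4a1, from -1.25 to -0.997 for Col4a2, from -0.94 to -0.71 for Col4a5, from -0.59 to -0.46 for Col18a1 and from 0.79 to 1.03 for Nid2. Calls over all genes also became fewer, from 1411 lower genes to between 246 and 1231.

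Of the 20 interstitial members, Sparc and Bgn passed the threshold, both lower in the AdHIF1a wells. Sparc encodes osteonectin, a matricellular glycoprotein that binds collagen. Its log2 signals were 11.05, 11.24, 10.77 and 11.10 in the AdGFP wells and 9.44, 8.70, 8.89 and 8.43 in the AdHIF1a wells. The groups lay more than 1 log2 unit apart, and rat 4 showed the largest fall. The difference was -2.17 ± 0.20, or 4.52-fold (95% interval 3.18 to 6.41, limma adjusted p = 0.00437). Bgn encodes biglycan, a small leucine-rich proteoglycan that binds collagen fibrils and growth factors. Its signals were 8.14, 8.36, 8.19 and 7.67 against 6.02, 5.99, 6.48 and 5.58. Bgn fell by 2.07 ± 0.13, or 4.21-fold (3.38 to 5.23, limma adjusted p = 0.00164), with differences of -2.12, -2.37, -1.71 and -2.09 in rats 1 to 4. Sparc and Bgn passed the threshold in each of the 14 other fits, with adjusted p of at most 0.0310 and 0.0189. Since the wells hold whole cultures, fewer cells of a type and less RNA per cell cannot be told apart in these values.

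**Figure D2:**
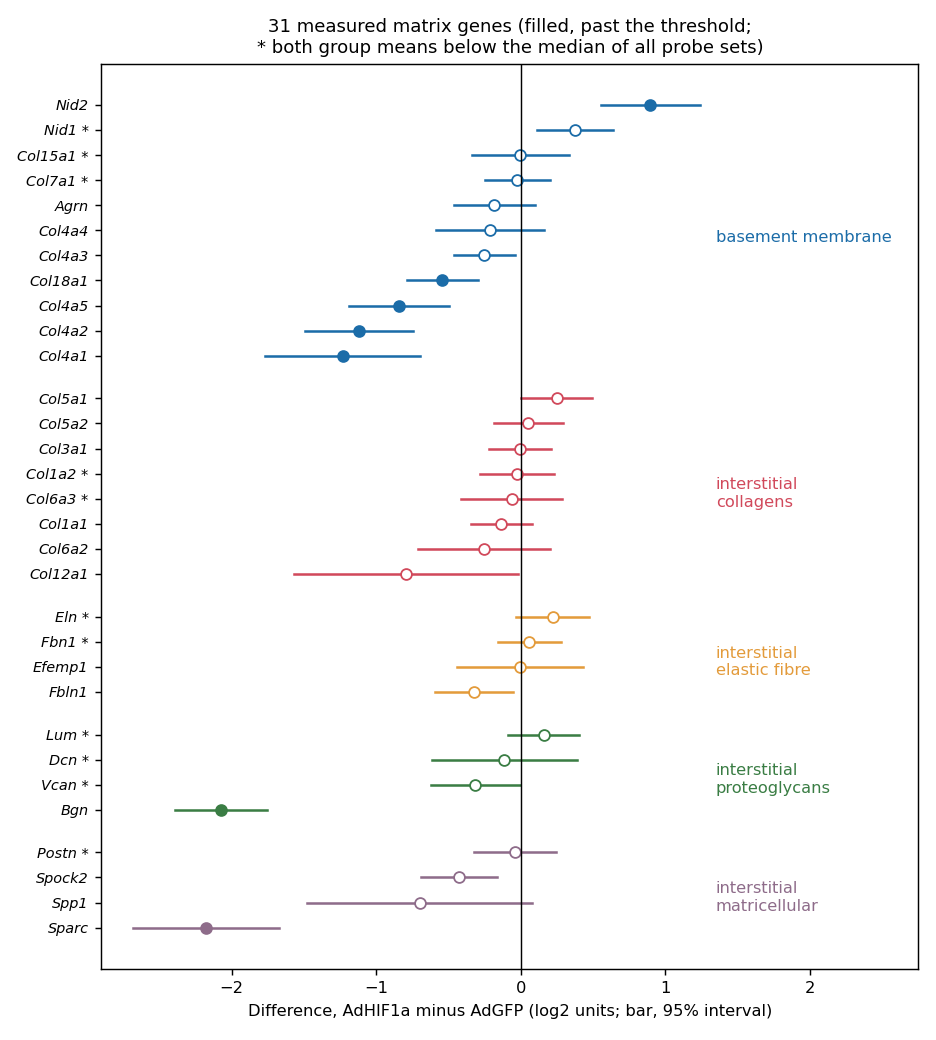
Difference between AdHIF1a and AdGFP in log2 units for the 31 measured members by group, with 95% intervals from the paired fit; filled points passed the threshold and an asterisk marks genes whose 2 group means both lay below the median of all probe set means. The 8 collagens of the interstitial group and the 4 elastic fibre genes were all open points, with differences between -0.79 and 0.25.

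None of the 8 measured interstitial collagen genes passed the threshold. Their median difference was -0.05. Col1a1 and Col1a2, the chains of type I collagen, differed by -0.14 ± 0.08 (95% interval -0.34 to 0.07) and -0.03 ± 0.10 (-0.28 to 0.23), and Col3a1, the chain of type III collagen, by -0.003 ± 0.09 (-0.22 to 0.21). These intervals leave out a fall of the size seen in Sparc or Bgn, but the AdGFP means were 5.86, 5.01 and 5.33, and how far background narrows a difference there was not tested. The chains of type V collagen, which sets fibril width, had differences of 0.25 ± 0.10 for Col5a1 and 0.05 ± 0.10 for Col5a2. Col5a1 was higher in all 4 AdHIF1a wells than in any AdGFP well, with a limma adjusted p of 0.175.

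Col12a1, a collagen on the surface of fibrils, had the largest difference of these genes and the widest spread between rats. Its signals were 8.18, 9.24, 8.31 and 9.04 in the AdGFP wells and 7.69, 8.00, 8.52 and 7.39 in the AdHIF1a wells. The within-rat differences were -0.49, -1.24, 0.21 and -1.65, so the groups overlapped and rat 3 went the other way. The mean difference of -0.79 ± 0.31 did not pass the threshold (limma adjusted p = 0.173). Col6a2, a chain of the filaments of type VI collagen, had 5.41, 5.23, 5.34 and 5.45 against 5.37, 5.28, 5.24 and 4.52, and only its AdHIF1a well of rat 4 stood apart. Its difference was -0.26 ± 0.18 (limma adjusted p = 0.446), and -0.03 without rat 4. Col6a3 differed by -0.06 ± 0.14 between means of 4.85 and 4.78, below the median of all probe set means.

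The elastic fibre genes also gave no call. Fbln1, which encodes the fibulin found in elastic fibres and basement membranes, had 5.57, 5.67, 5.76 and 5.79 in the AdGFP wells and 5.34, 5.59, 5.33 and 5.24 in the AdHIF1a wells, a difference of -0.32 ± 0.11 (limma adjusted p = 0.124). Eln, the elastin gene, had 4.77, 4.83, 5.03 and 4.59 against 4.81, 5.19, 5.13 and 4.97, a difference of 0.22 ± 0.10 (limma adjusted p = 0.233) between means just below the median of all probe set means. Groups overlapped for both genes. Efemp1, which encodes fibulin-3, had AdGFP and AdHIF1a means of 6.48 and 6.48, from differences of 0.58, -0.13, -0.02 and -0.44 in rats 1 to 4. Fbn1, the gene of the microfibril protein fibrillin-1, had means of 3.71 and 3.77, close to the lower quartile of all probe set means (3.63).

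Of the other proteoglycan genes, Vcan, which encodes the large hyaluronan-binding proteoglycan versican, had 4.4, 4.5, 4.2 and 4.77 against 3.95, 4.30, 4.19 and 4.17. It differed by -0.32 ± 0.12 (limma adjusted p = 0.173), with overlapping groups. Dcn, the gene of decorin and a close relative of Bgn, differed by -0.11 ± 0.20 between means of 5.05 and 4.94, with differences from -0.73 in rat 2 to 0.51 in rat 1. Lum, the lumican gene, had 2.65, 2.67, 2.68 and 2.65 in the AdGFP wells and 2.65, 2.78, 3.07 and 2.78 in the AdHIF1a wells. These values lay below the lower quartile of all probe set means in each well, and so did the means of Postn, the periostin gene (3.03 and 2.99). Bgn was the only one of the 4 proteoglycan genes whose group means lay above the median of all probe set means, and the only one past the threshold. Dcn lay above that median in AdGFP wells at 5.18 and 5.49 and in AdHIF1a wells at 5.33, 5.1 and 5.34. Its lowest well was the AdHIF1a well of rat 2, at 3.97.

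Spock2 encodes testican, a proteoglycan related to Sparc. It had 5.71, 6.16, 5.83 and 6.32 in the AdGFP wells and 5.35, 5.70, 5.61 and 5.64 in the AdHIF1a wells, with no overlap. Its difference of -0.43 ± 0.11 lay just outside the threshold (limma adjusted p = 0.0537), and inside it with a filter on dim probe sets (0.0290 and 0.0449), with array weights (0.0340) and with the variance prior taken from the named genes alone (0.0207). Spp1, the osteopontin gene, which macrophages and epithelia express, had 7.10, 7.98, 6.68 and 6.72 against 5.93, 7.38, 7.10 and 5.27. The signals spread widely within both groups, rat 3 went up by 0.42, and the mean difference of -0.70 ± 0.31 did not pass (limma adjusted p = 0.222).

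**Figure D3:**
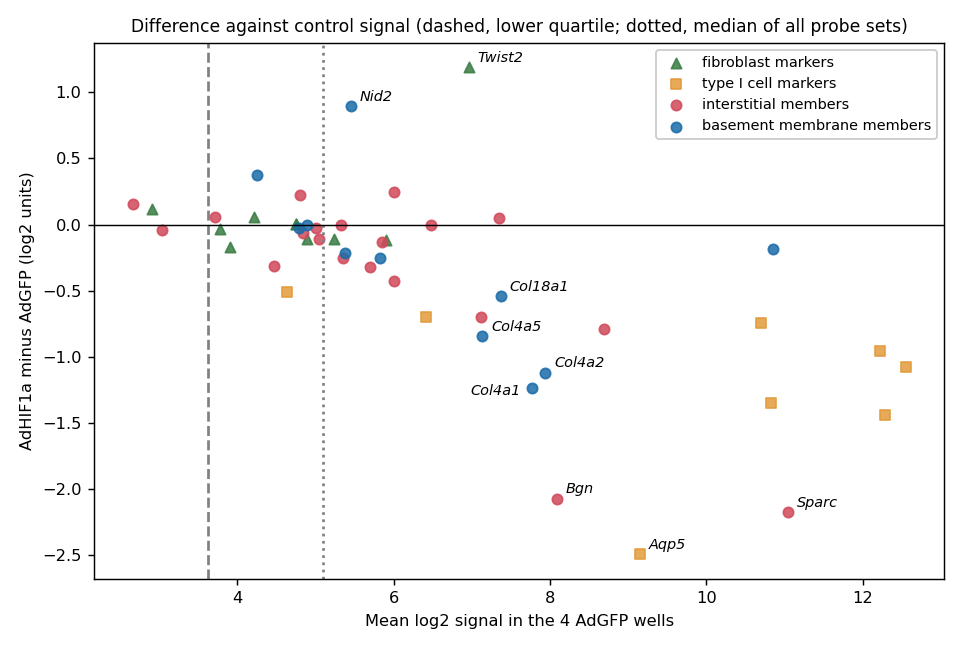
Difference between AdHIF1a and AdGFP (log2 units) against the mean log2 signal in the 4 AdGFP wells for the basement membrane and interstitial members, 10 fibroblast markers and 8 type I cell markers, with the lower quartile (3.63, dashed) and the median (5.09, dotted) of all probe set means. The 7 members past the threshold all lay to the right of the dotted line, and 7 of the 10 fibroblast markers lay to its left near a difference of 0.

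In 11 of the 31 members both group means lay below the median of all probe set means, as they did in 6602 of the 18166 genes, a like share. These were Nid1, Col7a1, Col15a1, Col1a2, Col6a3, Eln, Fbn1, Dcn, Lum, Vcan and Postn. None of these 11 passed the threshold. The other 20 members were above that median in both groups, and 7 of them passed, against 19.9% of the 11060 genes with both means above it. By side, 5 of 8 basement membrane members and 2 of 12 interstitial members above the median passed.

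The basement membrane and interstitial members were set side by side without a test, since the genes of a side are not replicates. Over all genes 7.77% fell and 5.68% rose, or 13.4% called. Of the 11 basement membrane members 4 fell and 1 rose, or 45.5% called, with a median difference of -0.22. Of the 20 interstitial members 2 fell and 0 rose, with a median difference of -0.09. The interstitial median was -0.16 without rat 1 and -0.05 without rat 4, where the basement membrane median was -0.22 each time. The gap between the sides went from 0.13 to 0.06 without rat 1. After quantile normalization the basement membrane and interstitial medians were -0.29 and -0.15, with a gap of 0.14. After median centring they were -0.30 and -0.17, with a gap of 0.13. The median over all genes was -0.005 in the main fit, -0.04 after quantile normalization and -0.09 after median centring. In rats 1 to 4 the basement membrane medians were -0.35, -0.23, -0.06 and -0.43 and the interstitial medians -0.07, -0.14, 0.00 and -0.19, so the former was the lower in each rat, by 0.29, 0.10, 0.06 and 0.24. The gap between the sides was smaller than the spread of single genes within each, which ran from -1.23 to 0.90 in the basement membrane and from -2.17 to 0.25 in the interstitial group. Among genes above the median signal the medians were -0.40 and -0.29. Sparc was counted as interstitial, so the counts of both sides depend on where it is placed. With Sparc and Bgn left out, 0 of 18 interstitial members passed and their median difference was -0.05.

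**Figure D4:**
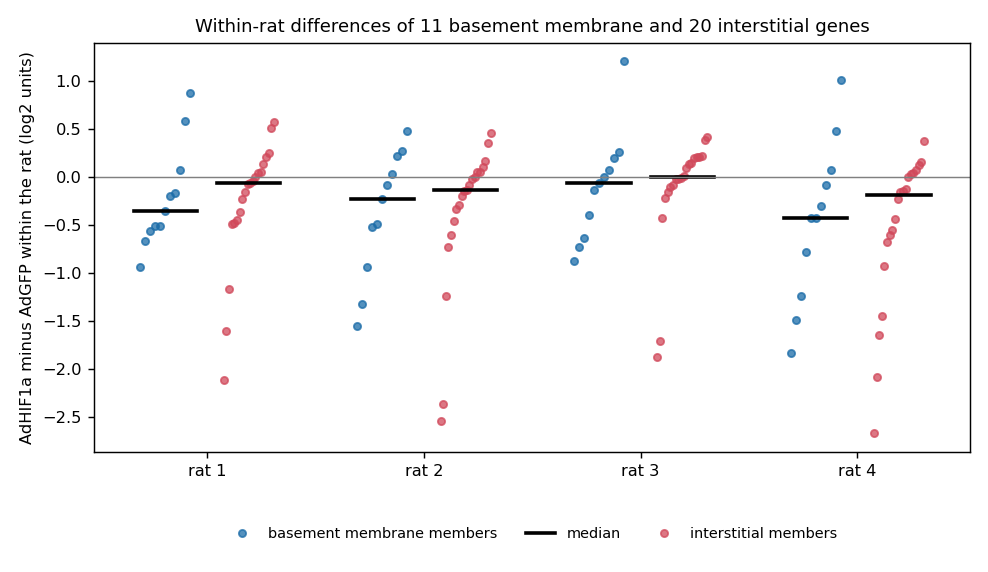
Within-rat differences (log2 units) of the 11 basement membrane and the 20 interstitial members in each of the 4 rats, with black bars at the medians. The 2 lowest interstitial points in each rat are Sparc and Bgn, and the basement membrane median lies below the interstitial one in each rat, by 0.06 to 0.29.

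Each of the 7 members past the threshold moved the same way in all 4 rats, but by different amounts. Among the 6 members that fell, rat 4 gave the largest fall in 5 and rat 2 in 1, while rat 1 and rat 3 gave the smallest in 3 each. Groups that did not overlap were seen for 8 members with the AdHIF1a wells below and 3 with the AdHIF1a wells above, where 12.2% and 10.3% of all genes showed the same. Between the AdGFP wells alone the SD of a member ranged from 0.015 for Lum to 0.60 for Spp1.

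Markers of other cell types were read beside these values, where 7.77% of all genes fell and 5.68% rose. A single call in lists this short was not read as a result about a cell type. Of 10 measured fibroblast markers that are not matrix genes, 1 rose and 0 fell, and Pdgfra (3.91 and 3.74), Tcf21 (4.75 and 4.76) and Inmt (3.78 and 3.74) had mean signals below the median of all probe set means in both groups. The summed linear signal of the 10 ranged from 336 to 404 in the AdGFP wells and from 437 to 622 in the AdHIF1a wells, the higher sum coming with Twist2, the marker that rose (by 1.19 ± 0.10). In all, 7 of the 10 had both group means below that median, and Thy1, Pi16 and Twist2 did not. Of 6 smooth muscle and pericyte markers 1 fell, Rgs5 by 1.38 ± 0.13, while 3 of the 6 differences were negative and 3 positive. Notch3 was higher in all 4 rats (0.43 ± 0.12) and did not pass. The summed signal of the 6 was 342 to 473 against 244 to 316. Rgs5 was the brightest of them in both groups, with means of 7.675 and 6.30. Of 7 endothelial markers none passed, and the sums were 138 to 159 against 146 to 162. Of 8 macrophage markers 1 fell, Adgre1 by 0.54 ± 0.12, with means of 4.37 and 3.83 below the median of all probe set means. Mrc1 (-0.82 ± 0.21), Siglec1 (-0.705 ± 0.20), Csf1r (-0.46 ± 0.12) and Ptprc (-0.265 ± 0.10) were lower in all 4 rats and did not pass. Cd68, the brightest of the 8, differed by 0.02 ± 0.24. The macrophage sums were 924 to 1799 against 545 to 1539. Of 4 mesothelial markers 1 fell, Lrrn4 by 0.61 ± 0.11, while 3 of the 4 differences were negative and 1 positive. Msln, the brightest of the 4 with an AdGFP mean of 9.29, was lower in all 4 rats (-0.335 ± 0.11) and did not pass. The mesothelial sums were 614 to 966 against 450 to 880.

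Markers of the alveolar epithelium were read in the same way. Of 8 type I cell markers 6 fell and 0 rose, where 7.77% of all genes fell and 5.68% rose. Among those that fell was the water channel gene Aqp5, by 2.49 ± 0.34. The summed signal of the 8 was 16798 to 22648 in the AdGFP wells and 7565 to 12104 in the AdHIF1a wells. The median of the type I markers was -0.71, -1.24, -0.61 and -1.43 in rats 1 to 4, where the medians of the 31 members were -0.17, -0.14, -0.01 and -0.30. Of 7 type II cell markers 2 rose, Sftpb by 0.69 ± 0.11 and Sftpa1 by 0.885 ± 0.10, and 1 fell, Lamp3 by 0.78 ± 0.13. Sftpc, the defining surfactant gene, had means of 12.34 and 12.62 and did not pass (limma adjusted p = 0.0840). Abca3 (-0.39 ± 0.11) and Slc34a2 (-0.82 ± 0.22) were lower in all 4 rats and did not pass either, so the list was split. The part of these markers in the matrix values was not tested.

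Among other matrix genes past the threshold, falls outnumbered rises in each of the 3 lists read here. Of 9 measured laminin chains, the second network of the basement membrane, 3 fell and 0 rose, where 7.77% of all genes fell and 5.68% rose. These were Lamb2 (-1.01 ± 0.11), Lama3 (-0.96 ± 0.15) and Lamc1 (-0.65 ± 0.12), with limma adjusted p of 0.00627, 0.0156 and 0.0237. Of 20 further collagen chains 1 fell, Col16a1, a fibril-associated collagen (-1.06 ± 0.12, adjusted p = 0.00662), and 0 rose, or 5.0% called against 13.4% of all genes, while 11 of the 20 had both means below the median of all probe set means. Of 44 other matrix glycoproteins and proteoglycans 8 fell and 1 rose, or 20.5% called. The largest falls were those of Ccn4, a matricellular protein (-1.74 ± 0.13), Fn1, the fibronectin gene (-1.52 ± 0.21), and Tgfbi, a collagen-binding adhesion protein (-1.25 ± 0.16). Fbln2 was the gene that rose (0.59 ± 0.11), from an AdGFP mean of 4.94, below the median of all probe set means. The median differences of the 3 lists were -0.11, -0.06 and -0.06.

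The genes that process collagen moved in both directions. Of 23 measured, 6 rose and 6 fell, or 52.2%, where 13.4% of all genes passed. Plod2, a lysyl hydroxylase, rose 9.93-fold (95% interval 7.02 to 14.1), and Plod1, of the same family, 3.13-fold (limma adjusted p = 0.00167). The cross-linking oxidases Loxl2 and Lox rose 6.58-fold and 4.18-fold. Of the same oxidase family Loxl1 fell 2.16-fold (limma adjusted p = 0.0229) and Loxl4 1.70-fold (0.0112). The prolyl 3-hydroxylase genes P3h1, P3h2 and P3h3 fell 1.56-fold, 3.08-fold and 1.43-fold (limma adjusted p = 0.0247, 0.0171 and 0.0327). Crtap fell 1.36-fold (limma adjusted p = 0.0278). The prolyl 4-hydroxylase genes P4ha1 and P4ha2 rose 1.39-fold and 2.05-fold (limma adjusted p = 0.0187 and 0.00329). These changes in both directions stood beside chains of types I, III and V collagen, none of which passed the threshold, and chains of type IV collagen, of which 3 of 5 fell.

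**Figure D5:**
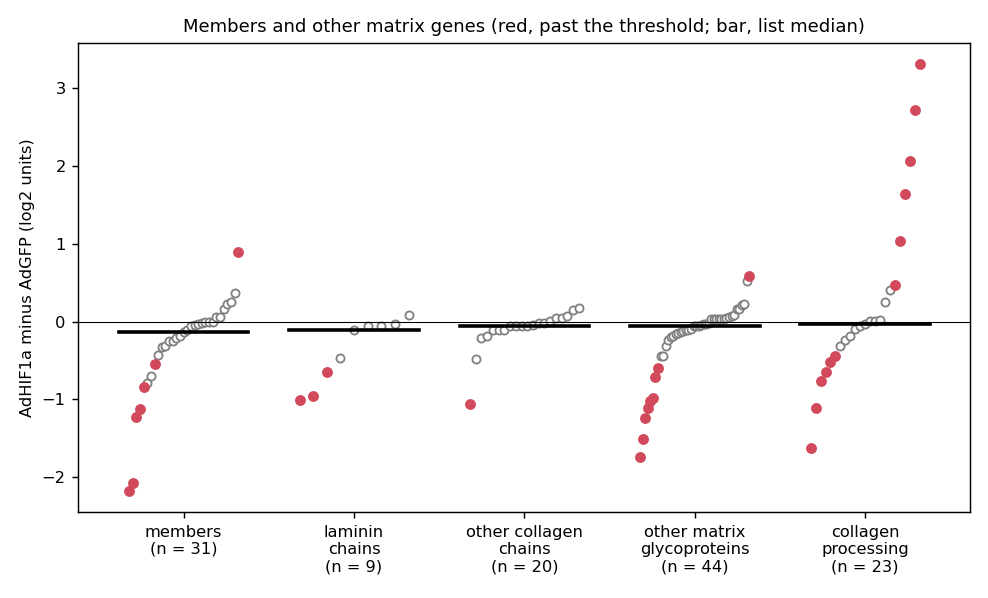
Difference between AdHIF1a and AdGFP (log2 units) for the 31 members, 9 laminin chains, 20 further collagen chains, 44 other matrix glycoproteins and proteoglycans and 23 collagen processing genes, with red points past the threshold and bars at the list medians. The processing genes reach from -1.63 to 3.31, and the members from -2.17 to 0.90.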

How the data were processed

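Per the submitters' processing notes the arrays were processed with Affymetrix Expression Console, and the authors deposited log2 signals for 36685 probe sets. The sources used here do not give the summary algorithm, the software version or the build. Array medians lay between 5.00 and 5.20 and upper quartiles between 7.62 and 7.68, so no further scaling was applied. There are no detection calls, and the number of arrays limits the precision. Of the probe sets, 18511 carried 1 symbol, 575 several and 17599 none in the platform annotation.

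All probe sets were fitted with limma 3.58.1 in R 4.3.3 (lmFit, eBayes, two-sided) with rat and virus as terms, and p-values were adjusted by Benjamini-Hochberg over 18166 genes. Pairing follows the series' design; wells of a rat deviated together across genes (r = 0.18 to 0.26) and wells of different rats did not (-0.22 to 0.08). At most 1.95% of values were equal between any 2 arrays. The fit was tested on simulated data.

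Members, lists and tests were chosen with earlier results of these data known. Every member is named; those past the threshold, and the 2 others of each group with the largest differences, are given well by well. In each list of other matrix genes the 3 past the threshold with the largest differences are named. Fbln2, Plod1, Crtap, Loxl1, Loxl4, P3h1, P3h2, P3h3, P4ha1, P4ha2 and the markers named were chosen with their values in view. Alternatives covered other blocks, scalings, filters, priors, array weights, probe set means, thresholds and the omission of each rat.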

Additional observations from a re-analysis of the deposited data

Results flagged for a closer look

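In 3 of the 62 groups of 4 wells (31 members, 2 viruses), 1 well lay apart from the other 3 beyond the 95% critical value of Dixon's ratio of gap to range, and chance alone marks about 1 group in 20. Col1a1 was 5.50 in the AdHIF1a well of rat 4, with the other AdHIF1a wells at 5.78 to 5.81. Col6a2 was 4.52 in the AdHIF1a well of rat 4, with the others at 5.24 to 5.37. Fbn1 was 3.65 in the AdGFP well of rat 4, with the others at 3.73 to 3.74, a gap of under 0.1 log2 units on a signal near the lower quartile of all probe set means. None of the 3 genes passed the threshold with or without rat 4.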

How the results depend on the processing

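Of 421 combinations of a member and an alternative, 400 left the call as it was, 14 lost it, 7 gained it and 0 reversed it, the other thresholds not counted here; these losses all came from leaving out 1 rat. The numbers of members higher and lower (1 and 6) became 2 and 6 with no replicate block or with the rat as a random block, where Nid1 was added. They became 2 and 7 with the variance prior from the named genes alone, an alternative chosen after seeing the data, 0 and 2 at an adjusted p under 0.01, and 1 and 5 at a minimum of 1.5-fold. Basement membrane members higher and lower (1 and 4) became 2 and 4 in the first 3 of these fits and 0 and 0 at the stricter threshold. Interstitial members lower (2) became 3 with either filter on dim probe sets, with array weights and with that prior. Without 1 rat, 0 to 1 members were higher and 2 to 5 lower, with 0 to 3 lower in the basement membrane and 2 in the interstitial group each time. With the filter at the median signal, which leaves 20 members, the medians of the sides moved to -0.40 and -0.29. Over all genes, 1032 higher and 1411 lower became 635 and 1324 after median centring, 1576 and 2098 with the prior from the named genes, 349 and 307 at an adjusted p under 0.01, 656 and 924 at a minimum of 1.5-fold, and 315 to 775 and 246 to 1231 without 1 rat. Median centring moved the median over all genes to -0.09. Differences close to 0 changed sign under some alternatives for Col15a1, Col1a2, Col3a1, Col5a2, Col6a3, Col7a1, Dcn, Efemp1, Fbn1 and Postn, none of them past the threshold. Background correction could not be varied on summarised values, and how dim signals limit the size of a difference was not tested.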
